A study of Rattus norvegicus with 12 samples.

Results

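The genes described here are 35 lysine acetyltransferases and bromodomain proteins, measured in the rat kidney fibroblast line NRK-49F and taken by gene symbol from the deposited table. They comprise 10 acetyltransferases, called writers here, and 25 proteins with a bromodomain, called readers, among 14601 genes that passed the filter on low counts out of 43360 genes in the count table. All 35 matched 1 row each and all 35 passed that filter. NRK-49F is an established line from normal rat kidney. Cells received a plasmid expressing Flag-tagged human HDAC1 or the empty plasmid pcDNA3.1, and then spent 24 hours in medium with 0.5% serum, either with 2 ng/ml of the cytokine TGFB1 or without it (vehicle). The 4 groups of 3 poly(A) RNA libraries were HDAC1 with TGFB1, empty vector with TGFB1, HDAC1 with vehicle, and empty vector with vehicle, by the sample titles. The labels do not say that the 3 libraries of a group came from separate cultures, so p-values measure only the spread between these libraries, which may be technical.

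Acetyltransferases attach acetyl groups to lysines of histones and other proteins, and histone deacetylases such as HDAC1 remove them. Bromodomains are folds that bind acetylated lysine, and they sit in chromatin remodellers, in scaffolds of acetyltransferase complexes and in transcriptional cofactors. In fibroblasts, TGFB1 drives the change into matrix-producing myofibroblasts through SMAD transcription factors, which recruit the acetyltransferases Ep300 and Crebbp.

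Library totals were 18661922 to 26570112 counts for HDAC1 with TGFB1, 20844186 to 23619883 for the empty vector with TGFB1, 24662270 to 36652084 for HDAC1 with vehicle and 18397093 to 27119357 for the empty vector with vehicle. Levels are given as CPM, read counts scaled to a common library total by TMM, which are not corrected for gene length and so are compared between libraries and not between genes. Hdac1 averaged 421 ± 43.3 CPM in HDAC1 cells and 210 ± 4.13 CPM in empty vector cells with vehicle (SD, n = 3 each), and 464 ± 43.5 CPM in HDAC1 cells and 267 ± 21.1 CPM in empty vector cells with TGFB1. The related rat gene Hdac1l had 1172 ± 279 CPM in HDAC1 cells and 8.29 ± 7.33 CPM in empty vector cells with vehicle, and how reads of the human plasmid divide between the pair is not known. Of the 12 fibroblast markers listed, 9 were found by symbol, with means over the 12 libraries from 24.7 CPM (Postn) to 5779 CPM (Fn1). Among them Col1a1 averaged 4612 CPM, Vim 3674 CPM and Pdgfrb 31.2 CPM. Thy1, Fap and Lum were not found. Of 10 kidney epithelial markers 4 were found. Krt8, a keratin of simple epithelia, averaged 1470 CPM, Cubn 3.14 CPM, Krt19 1.95 CPM and Slc34a1 0.588 CPM. Epcam, Cdh1, Krt18, Umod, Lrp2 and Aqp2 were not found. Markers of 2 other tissues differed between libraries. The 20 heart genes, all found, summed to 151 to 167 CPM in HDAC1 with TGFB1, 439 to 556 CPM in the empty vector with TGFB1, 243 to 467 CPM in HDAC1 with vehicle and 74.9 to 413 CPM in the empty vector with vehicle, where the lowest value was replicate 1. The 19 brain genes found of 20 summed to 48.7 to 50.6 CPM in HDAC1 with TGFB1, 134 to 140 CPM in the empty vector with TGFB1, 79.5 to 130 CPM in HDAC1 with vehicle and 20.1 to 116 CPM in the empty vector with vehicle. Replicate 3 of the empty vector with TGFB1 also stood apart for the genes described here. It was the lowest of its 3 libraries for 26 of the 35 (74.3%), against 39.9% of all tested genes, and lay below 0.8 of the mean of the other pair for 8 of the 35 (22.9%), against 14% of all tested genes. Those 8 were Ep300, Crebbp, Kat6a, Brpf3, Pbrm1, Baz2a, Bptf and Trim33. In the same group replicate 2 was the lowest for 3 of the 35 (8.57%), against 32.2% of all tested genes. Replicate 3 of HDAC1 with vehicle was the lowest of its group for 4 of the 35 (11.4%), against 31.8% of all tested genes. It was the highest for 19 of the 35, against 30.8% of all tested genes. The part of these differences in the results below was not tested except where values without a library are given.

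Most of the 35 genes varied little. The highest group mean was 1.03 to 2.15 times the lowest, with a median of 1.24 times. Of the 35, 7 reached 1.5 times, among them Cecr2 (1.65 times), whose counts were too low to read. This span was not computed over all tested genes. The median coefficient of variation within groups was 5.32%. The 34 genes other than Cecr2 had at least 5285 counts each over the 12 libraries. Cecr2, the reader of a remodeller known mainly from neural and germ cells, had 102 counts in all and 0.11 to 0.58 CPM, so that differences in it were not detectable at this depth.

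**Figure D1:**
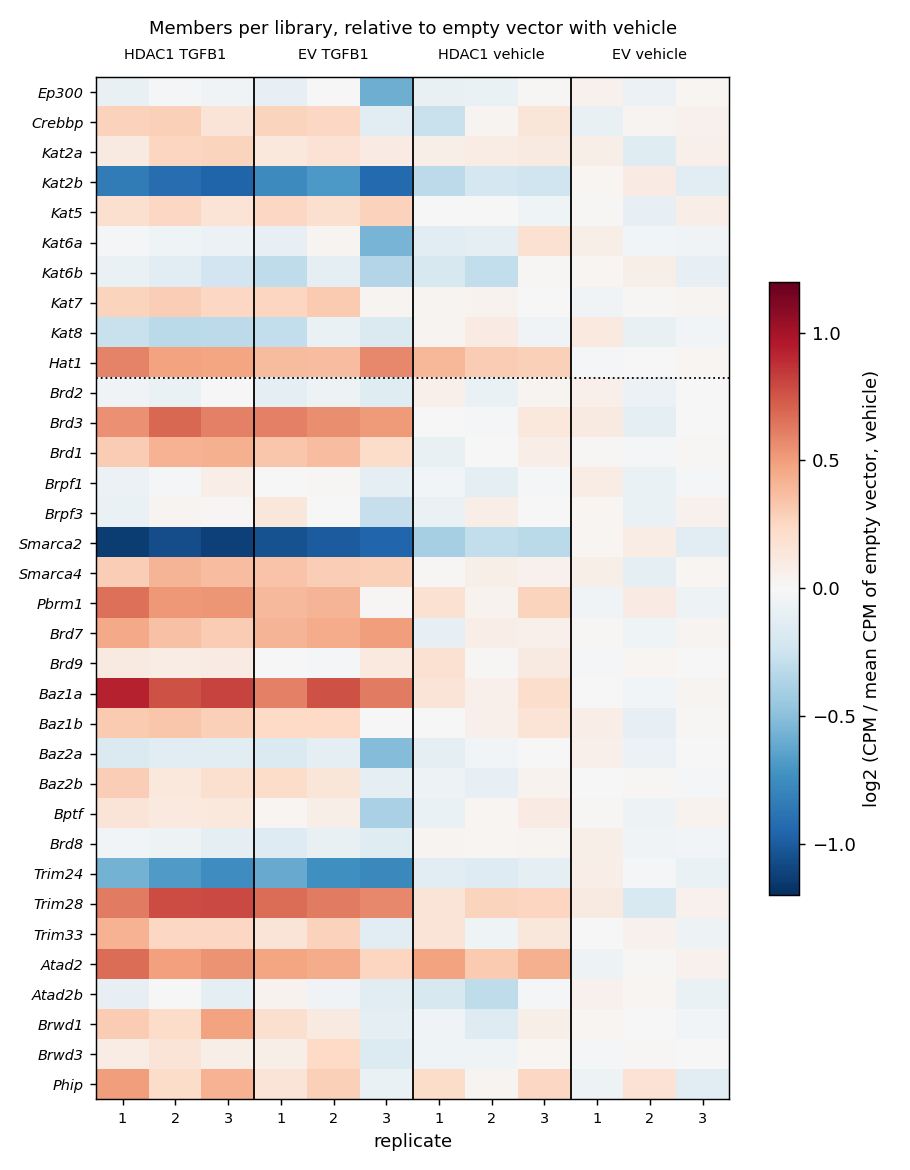
Levels of 34 of the 35 genes (Cecr2 is left out for its low counts) in the 12 libraries, as log2 CPM relative to the mean of the empty vector with vehicle; writers are the upper rows and readers the lower rows, and the colour scale runs from -1.2 to 1.2. Smarca2, Kat2b and Trim24 are below their vehicle level in all 6 TGFB1 libraries, and Baz1a, Trim28 and Brd3 are above it.

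TGFB1 changed readers of opposite sign within the same families. Smarca2 and Smarca4 are the alternative ATPases of the SWI/SNF remodellers: Smarca2 fell by 41.2% with HDAC1 and by 50% with the empty vector, and Smarca4 rose by 24.3% and 24%. Trim24 fell and Trim28 rose, both of them TRIM proteins with a bromodomain that act as transcriptional cofactors. Among the writers, Kat2b fell and Hat1, Kat5 and Kat7 rose, whereas Ep300 and Kat2a did not pass the test with either plasmid. In bulk RNA, fewer cells of a kind and less RNA per cell cannot be told apart.

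The windows of 250 bases before the gene start are shown for both pairs because their members moved in opposite directions. The sequences are RefSeq's for the assembly GRCr8, on the plus strand, from chr1:233617121-233617370 for Smarca2, chr8:28443569-28443818 for Smarca4, chr4:67534085-67534334 for Trim24 and chr1:82724645-82724894 for Trim28. Capitals mark the GC box (GGGCGG, or CCGCCC on the other strand) and the CCAAT box (CCAAT or ATTGG).
Smarca2: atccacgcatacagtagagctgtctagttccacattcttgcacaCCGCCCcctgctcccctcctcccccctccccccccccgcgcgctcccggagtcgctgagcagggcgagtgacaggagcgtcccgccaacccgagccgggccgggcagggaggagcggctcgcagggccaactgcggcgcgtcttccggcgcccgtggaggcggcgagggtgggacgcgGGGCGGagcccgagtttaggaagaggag
Smarca4: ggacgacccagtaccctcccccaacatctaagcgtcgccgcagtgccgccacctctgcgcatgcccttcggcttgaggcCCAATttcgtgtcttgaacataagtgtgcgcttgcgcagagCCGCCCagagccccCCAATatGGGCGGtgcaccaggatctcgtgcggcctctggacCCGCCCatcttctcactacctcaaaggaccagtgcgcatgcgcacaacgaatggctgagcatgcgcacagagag
Trim24: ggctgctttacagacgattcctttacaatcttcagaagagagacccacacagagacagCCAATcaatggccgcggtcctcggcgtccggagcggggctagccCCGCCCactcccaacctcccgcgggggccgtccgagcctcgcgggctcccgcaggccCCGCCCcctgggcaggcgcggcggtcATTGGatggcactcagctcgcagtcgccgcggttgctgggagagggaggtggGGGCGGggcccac
Trim28: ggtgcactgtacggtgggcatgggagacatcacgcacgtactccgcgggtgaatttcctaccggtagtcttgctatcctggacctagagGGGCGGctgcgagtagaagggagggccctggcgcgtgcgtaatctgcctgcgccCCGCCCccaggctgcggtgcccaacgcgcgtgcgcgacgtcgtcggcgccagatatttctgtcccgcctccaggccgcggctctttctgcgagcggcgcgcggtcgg
Smarca2 and Trim28 each had 2 GC boxes and 0 CCAAT boxes in this window, and Smarca4 and Trim24 each had 3 GC boxes and 2 CCAAT boxes. The GC content was 72% for Smarca2, 62% for Smarca4, 70% for Trim24 and 68% for Trim28. A window was found for 30 of the 35 genes, and of these 22 held a GC box and 14 a CCAAT box, against 30.5% and 34% of the 33469 windows in the table. The 30 were counted by gene and the table by window. The windows were not matched for expression, so no excess is read from these values. The AP-1 motif TGANTCA was in the window of Kat6b alone among the 30 and in 6.34% of all windows. E2F motifs (TTTGGCGC, TTTCCCGC, TTTGCCGC or TTTCGCGC) were in those of Brd2 and Phip and in 1.73% of all windows. Both strands were searched, and a match is a description of these letters only.

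With the empty vector, TGFB1 changed 16 of the 35 genes (45.7%), 11 higher and 5 lower, where 50.9% of all tested genes were called, 25.9% higher and 25% lower (edgeR quasi-likelihood test, Benjamini-Hochberg adjusted p under 0.05 over all tested genes). With HDAC1 it changed 19 of the 35 (54.3%), 15 higher and 4 lower, where 49.1% of all tested genes were called, 24.9% higher and 24.2% lower. In total these shares are near those of all genes, and by direction the 35 had more higher than lower calls with either plasmid, where all genes had about as many of each. With the empty vector this excess was small without replicate 2 of the TGFB1 libraries, at 9 higher and 7 lower. With HDAC1 the 35 had a median log2 fold change of 0.14, against -0.02 over all tested genes, and with the empty vector 0.07, against 0.01. The 2 comparisons share no library. In both of them 10 genes were higher (Kat5, Kat7, Hat1, Brd3, Brd1, Smarca4, Pbrm1, Brd7, Baz1a and Trim28) and 3 were lower (Kat2b, Smarca2 and Trim24), where 39.3% of all tested genes (5738) were called in both. Of the 35, 13 were called in neither, and 29 had the same sign. All tested genes were not counted for these last values, so no excess is read from them. Without replicate 1 of the empty vector with vehicle, the library low in heart and brain genes, 13 of the 35 were called with the empty vector (9 higher and 4 lower), where 44.5% of all tested genes were called. With the summed level of the heart and brain genes as a covariate, 13 were called with the empty vector and 15 with HDAC1. Over all tested genes the calls also fell with the covariate, from 7429 to 6331 with the empty vector and from 7170 to 5818 with HDAC1.

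**Figure D2:**
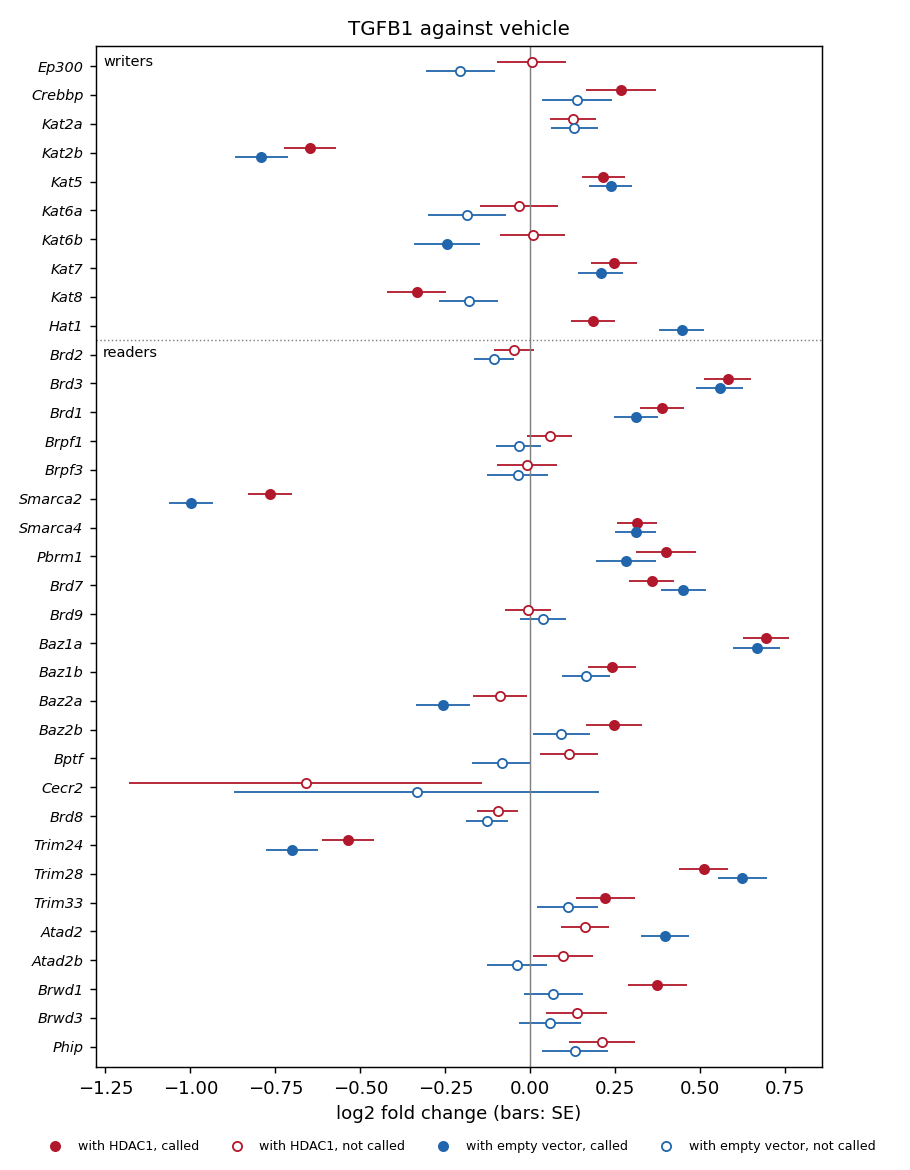
Log2 fold change of TGFB1 over vehicle (x axis, log2 scale) with its standard error for each of the 35 genes, with HDAC1 and with the empty vector; filled points passed the edgeR test at an adjusted p under 0.05, and writers stand above the dotted line. Smarca2 lies farthest to the left, at -0.77 with HDAC1 and -0.999 with the empty vector, and Baz1a farthest to the right among called genes, at 0.69 and 0.67.

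Ep300 and Crebbp are the paired coactivators that acetylate histones at enhancers and promoters. Ep300 had 138, 146 and 143 CPM in HDAC1 cells with TGFB1, against 138, 139 and 149 CPM with vehicle. Empty vector cells had 138, 147 and 98.2 CPM with TGFB1, against 152, 140 and 150 CPM with vehicle. The groups overlapped with either plasmid, and the low value was replicate 3 of the empty vector with TGFB1. The log2 fold change of Ep300 was 0.00 ± 0.10 (SE) with HDAC1 (edgeR adjusted p = 0.978) and -0.21 ± 0.10 with the empty vector (edgeR adjusted p = 0.105), and without that library the second value was -0.07. Without replicate 1 or 2 of the same group, Ep300 passed with the empty vector (-0.28, edgeR adjusted p = 0.0463, and -0.32, edgeR adjusted p = 0.012). Crebbp had 55.6, 56.1 and 51.2 CPM in HDAC1 cells with TGFB1, against 38.1, 47.0 and 50.6 CPM with vehicle. The groups did not overlap, and the rise of 0.27 passed the test narrowly (edgeR adjusted p = 0.0373). Leaving out any of 7 libraries ended this call. Without replicate 1 or 2 of HDAC1 with vehicle the edgeR adjusted p was 0.207 and 0.0796, and without replicate 1, 2 or 3 of HDAC1 with TGFB1 it was 0.152, 0.172 and 0.0673. Without replicate 2 of the empty vector with vehicle it was 0.0505, and without replicate 1 of the empty vector with TGFB1 it was 0.0655, and the lowest log2 fold change of these was 0.16. In empty vector cells Crebbp had 55.1, 54.4 and 41.9 CPM with TGFB1, against 43.1, 47.0 and 47.6 CPM with vehicle, which overlapped.

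Kat2a and Kat2b are the alternative catalytic subunits of the SAGA and ATAC coactivator complexes. Kat2b had 38.6, 36.6 and 35.3 CPM in HDAC1 cells with TGFB1, against 55.5, 59.3 and 58.4 CPM with vehicle. The empty vector libraries had 40.5, 42.6 and 35.9 CPM with TGFB1, against 69.8, 73.8 and 62.8 CPM with vehicle. All 6 TGFB1 libraries lay below all 6 vehicle libraries. The log2 fold change was -0.65 with HDAC1 (edgeR adjusted p = 6.26e-07) and -0.79 with the empty vector (edgeR adjusted p = 2.98e-08). Kat2a had 79.3 to 88.9 CPM in HDAC1 cells with TGFB1, against 77.4 to 79.8 CPM with vehicle, and 78.8 to 83.3 CPM in empty vector cells with TGFB1, against 66.7 to 77.7 CPM with vehicle. Its log2 fold changes of 0.13 with either plasmid did not pass the test (edgeR adjusted p = 0.131 with HDAC1 and 0.12 with the empty vector).

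The MYST family writers did not move as one. Kat7, the catalytic subunit of the HBO1 complex, averaged 116 ± 2.16 CPM in HDAC1 cells with TGFB1 and 98.2 ± 1.41 CPM with vehicle, or 0.25 on the log2 scale (edgeR adjusted p = 0.00439). With the empty vector it was 0.21 (edgeR adjusted p = 0.0138), where replicate 3 with TGFB1, at 98.5 CPM, lay within the vehicle range of 93.6 to 98.7 CPM. The empty vector call of Kat7 was lost without replicate 1 of the vehicle libraries (0.17, edgeR adjusted p = 0.0822) or without replicate 1 or 2 of the TGFB1 libraries (0.16 and 0.15, edgeR adjusted p = 0.0948 and 0.0965). Kat5, the catalytic subunit of the NuA4/TIP60 complex, had 67.8, 70.4 and 66.5 CPM in HDAC1 cells with TGFB1, against 59.1, 59.8 and 57.4 CPM with vehicle. Its log2 fold change was 0.22 with HDAC1 (edgeR adjusted p = 0.00769) and 0.24 with the empty vector (edgeR adjusted p = 0.00384). Without replicate 2 of HDAC1 with TGFB1 the first value was 0.16 (edgeR adjusted p = 0.0841). Kat8, which acetylates histone H4 within the MSL and NSL complexes, fell with HDAC1, to 15.5 to 16.1 CPM with TGFB1, against 18.9 to 20.8 CPM with vehicle (log2 fold change -0.33, edgeR adjusted p = 0.00339). With the empty vector Kat8 had 15.9 to 18.4 CPM, against 18.2 to 21.1 CPM with vehicle, and did not pass (-0.18, edgeR adjusted p = 0.0923). Kat6a and Kat6b are close paralogues that share a complex architecture. Kat6b passed narrowly with the empty vector, at 16.1 to 19.1 CPM with TGFB1, against 19.2 to 21.6 CPM with vehicle (-0.24, edgeR adjusted p = 0.0413). Its value with HDAC1 was 0.01 (edgeR adjusted p = 0.957), and Kat6a passed with neither plasmid. Without replicate 2 of the empty vector with TGFB1, Kat6a passed with the empty vector (-0.31, edgeR adjusted p = 0.0292), as it did with no filter on low counts (-0.20, edgeR adjusted p = 0.0446), and without replicate 3 it was -0.06. Kat6b lost its call without replicate 1 or 3 of the empty vector with TGFB1 (edgeR adjusted p = 0.0859 and 0.0844) or replicate 1 or 2 of the empty vector with vehicle (edgeR adjusted p = 0.0808 and 0.118).

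Hat1 acetylates newly made histone H4 before it is deposited on replicating DNA. It had 129, 119 and 118 CPM in HDAC1 cells with TGFB1, against 112, 106 and 104 CPM with vehicle. Its empty vector values were 112, 111 and 127 CPM with TGFB1, against 84.1, 85.7 and 86.7 CPM with vehicle. The TGFB1 libraries lay above the vehicle libraries with either plasmid. The log2 fold change was 0.18 with HDAC1 (edgeR adjusted p = 0.0226) and 0.45 with the empty vector (edgeR adjusted p = 7.96e-06), and the first rested on few libraries. Without replicate 1, 2 or 3 of HDAC1 with TGFB1 its edgeR adjusted p was 0.211, 0.079 and 0.0682, and without replicate 2 or 3 of HDAC1 with vehicle it was 0.132 and 0.0762. Without replicate 1 of the empty vector with TGFB1 it was 0.0631, and the lowest log2 fold change of these was 0.12. DNA replication genes moved with Hat1. The 29 of these genes found, of 30 listed, summed to 4216 to 4342 CPM in HDAC1 cells with TGFB1, against 3235 to 3470 CPM with vehicle, and to 3827 to 4039 CPM in empty vector cells with TGFB1, against 2351 to 2682 CPM with vehicle. Their part in the change of Hat1 was not tested.

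Among the SWI/SNF readers, Smarca2 had 76.3, 80.5 and 77.4 CPM in HDAC1 cells with TGFB1, against 127, 137 and 135 CPM with vehicle. Its levels in empty vector cells were 81.4, 83.8 and 86.8 CPM with TGFB1, against 170, 179 and 154 CPM with vehicle. All 6 TGFB1 libraries were far below all 6 vehicle libraries. The log2 fold change was -0.77 ± 0.06 (SE) with HDAC1 (edgeR adjusted p = 3.74e-09) and -0.999 ± 0.06 with the empty vector (edgeR adjusted p = 5.55e-11). Smarca4 had 272, 293 and 285 CPM in HDAC1 cells with TGFB1, against 223, 232 and 229 CPM with vehicle. Empty vector cells had 280, 272 and 270 CPM with TGFB1, against 232, 206 and 225 CPM with vehicle. Again the TGFB1 and vehicle libraries did not overlap, and both log2 fold changes were 0.31 (edgeR adjusted p = 0.000191 with HDAC1 and 0.000195 with the empty vector). Smarca2 has 2 GC boxes and Smarca4 3 in the windows printed above.

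Pbrm1 and Brd7 are subunits of the PBAF form of SWI/SNF, and Brd9 of the non-canonical form. Brd7 had 83.4, 77.7 and 75.2 CPM in HDAC1 cells with TGFB1, against 56.9, 64.1 and 63.4 CPM with vehicle, or 0.36 on the log2 scale (edgeR adjusted p = 0.000125). With the empty vector it was 0.45 (edgeR adjusted p = 7.6e-06). Pbrm1 rose to 157 to 173 CPM in HDAC1 cells with TGFB1, against 113 to 132 CPM with vehicle (0.40, edgeR adjusted p = 0.000789). The empty vector libraries had 143, 145 and 111 CPM with TGFB1, against 106, 117 and 105 CPM with vehicle. The low value, replicate 3, lay within the vehicle range, and the log2 fold change was 0.28 (edgeR adjusted p = 0.0114). Leaving out any of 4 libraries ended the empty vector call of Pbrm1: replicate 1 or 2 of the empty vector with TGFB1 (edgeR adjusted p = 0.0896 and 0.0745), or replicate 1 or 3 of the empty vector with vehicle (edgeR adjusted p = 0.0554 and 0.052). Brd9 ranged from 39.4 to 45.4 CPM over the 12 libraries, and passed with neither plasmid.

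Baz1a, the accessory subunit that pairs with the ISWI ATPase Smarca5 in nucleosome spacing, had 87.3, 78.5 and 80.9 CPM in HDAC1 cells with TGFB1, against 51.3, 48.1 and 53.2 CPM with vehicle. Its empty vector values were 70.0, 78.6 and 71.1 CPM with TGFB1, against 46.3, 45.0 and 47.1 CPM with vehicle. All TGFB1 libraries lay above all vehicle libraries. The log2 fold changes were 0.69 with HDAC1 (edgeR adjusted p = 3.89e-08) and 0.67 with the empty vector (edgeR adjusted p = 6.72e-08). Its relative Baz1b, also a partner of Smarca5, rose with HDAC1 (0.24, edgeR adjusted p = 0.00735, or 0.0515 without replicate 2 of HDAC1 with TGFB1), and its value with the empty vector was 0.16 (edgeR adjusted p = 0.059), or 0.21 without replicate 3 of the TGFB1 libraries (edgeR adjusted p = 0.00539) and 0.11 without replicate 1. Baz2a, of the nucleolar remodelling complex that silences ribosomal DNA, was lower with the empty vector, at 113, 117 and 89.0 CPM with TGFB1, against 133, 122 and 128 CPM with vehicle (-0.26, edgeR adjusted p = 0.0101). Without replicate 3 of the TGFB1 libraries it was -0.17 (edgeR adjusted p = 0.0195), and with the heart and brain covariate it was -0.22 and lost its call (edgeR adjusted p = 0.0697). Baz2b rose with HDAC1 only narrowly (0.25, edgeR adjusted p = 0.0176), and lost its call without replicate 1 or 3 of HDAC1 with TGFB1 (0.17 and 0.22, edgeR adjusted p = 0.132 and 0.0665) or replicate 2 of HDAC1 with vehicle (0.19, edgeR adjusted p = 0.107). Bptf, the reader of the NURF remodeller, passed with neither plasmid, at 0.12 with HDAC1 and -0.08 with the empty vector (edgeR adjusted p = 0.281 and 0.435), and without replicate 3 of the empty vector with TGFB1 the second value turned to 0.02.

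Brd2 and Brd3 belong to the BET family, which carries acetyl marks to the transcription machinery. Brd3 had 82.3, 90.4 and 85.4 CPM in HDAC1 cells with TGFB1, against 55.9, 55.7 and 61.1 CPM with vehicle. Its levels in empty vector cells were 85.4, 82.4 and 80.0 CPM with TGFB1, against 60.5, 51.9 and 55.9 CPM with vehicle. The TGFB1 libraries lay above the vehicle libraries with either plasmid, with log2 fold changes of 0.58 (HDAC1, edgeR adjusted p = 5.31e-07) and 0.56 (empty vector, edgeR adjusted p = 8.46e-07). Brd2 passed with neither, at -0.05 with HDAC1 and -0.11 with the empty vector (edgeR adjusted p = 0.531 and 0.146). Of the scaffolds of the MYST complexes, Brd1 rose with either plasmid (0.39 with HDAC1, edgeR adjusted p = 4.16e-05, and 0.31 with the empty vector, edgeR adjusted p = 0.000384), and Brpf1 and Brpf3 passed with neither. Brd8, the reader of the NuA4/TIP60 complex, passed with neither plasmid although its groups did not overlap (-0.10 with HDAC1 and -0.13 with the empty vector, edgeR adjusted p = 0.204 and 0.0886). Its empty vector value passed without replicate 2 of HDAC1 with vehicle or replicate 1 of HDAC1 with TGFB1 (-0.15 in both, edgeR adjusted p = 0.0485 and 0.0465). These libraries enter that fit through the shared estimate of spread and through the filter and scaling, which were computed anew.

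Trim24 and Trim28 moved in opposite directions. Trim24, a nuclear receptor cofactor, had 26.7, 24.8 and 23.5 CPM in HDAC1 cells with TGFB1, against 36.3, 35.6 and 36.7 CPM with vehicle. Empty vector cells had 26.1, 23.7 and 23.1 CPM with TGFB1, against 41.9, 39.3 and 37.5 CPM with vehicle. All TGFB1 libraries lay below all vehicle libraries, with log2 fold changes of -0.54 (HDAC1, edgeR adjusted p = 6.09e-06) and -0.70 (empty vector, edgeR adjusted p = 1.53e-07). Trim28, the corepressor recruited by KRAB zinc finger proteins, had 384, 429 and 433 CPM in HDAC1 cells with TGFB1, against 277, 300.5 and 297 CPM with vehicle. The empty vector libraries had 397, 384 and 373 CPM with TGFB1, against 269, 220 and 259 CPM with vehicle. Here all TGFB1 libraries lay above all vehicle libraries, with log2 fold changes of 0.51 (HDAC1, edgeR adjusted p = 6.73e-06) and 0.62 (empty vector, edgeR adjusted p = 4.06e-07). Trim33, known as a partner and regulator of SMAD proteins, rose narrowly with HDAC1 (0.22, edgeR adjusted p = 0.0424), and lost its call without replicate 2 of HDAC1 with vehicle (0.13, edgeR adjusted p = 0.281). It was also lost without replicate 1, 2 or 3 of HDAC1 with TGFB1 (edgeR adjusted p = 0.27, 0.0836 and 0.0864) or replicate 1 of the empty vector with TGFB1 (edgeR adjusted p = 0.0848). With the empty vector its value was 0.11 (edgeR adjusted p = 0.317), or 0.19 without replicate 3 of the TGFB1 libraries (edgeR adjusted p = 0.0385).

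Atad2 is an ATPase with a bromodomain whose gene is known as an E2F target in dividing cells. It had 243, 215 and 222 CPM in HDAC1 cells with TGFB1, against 213, 189 and 206 CPM with vehicle. Its empty vector values were 212, 208 and 183 CPM with TGFB1, against 146, 154 and 158 CPM with vehicle. The TGFB1 libraries lay above the vehicle libraries with either plasmid. The log2 fold change passed with the empty vector (0.40, edgeR adjusted p = 7.25e-05) and not with HDAC1 (0.16, edgeR adjusted p = 0.0609). With HDAC1, Atad2 passed without replicate 1 of the vehicle libraries (0.20, edgeR adjusted p = 0.042) and in a fit to the 2 groups compared (0.15, edgeR adjusted p = 0.0369). It was 0.09 without replicate 2 of the vehicle libraries and 0.08 without replicate 1 of the TGFB1 libraries. The DNA replication genes given beside Hat1 moved with Atad2 too, and their part in it was not tested. Its paralogue Atad2b ranged from 17.2 to 22.1 CPM over the 12 libraries and passed with neither plasmid. Of the WD-repeat readers, Brwd1 rose with HDAC1, to 40.7 to 48.6 CPM with TGFB1, against 31.4 to 36.7 CPM with vehicle (0.37, edgeR adjusted p = 0.00118). In empty vector cells its value was 0.07 (edgeR adjusted p = 0.538), and Brwd3 and Phip passed with neither plasmid. Phip, at 0.21 with HDAC1 (edgeR adjusted p = 0.0785), passed without replicate 2 of HDAC1 with TGFB1 (0.26, edgeR adjusted p = 0.0488) or replicate 2 of the empty vector with vehicle (0.22, edgeR adjusted p = 0.0499). It also passed with no filter on low counts (edgeR adjusted p = 0.0206) and in a fit to the 2 groups compared (edgeR adjusted p = 0.0244). Phip was 0.12 without replicate 2 of HDAC1 with vehicle and 0.12 without replicate 1 of HDAC1 with TGFB1.

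**Figure D3:**
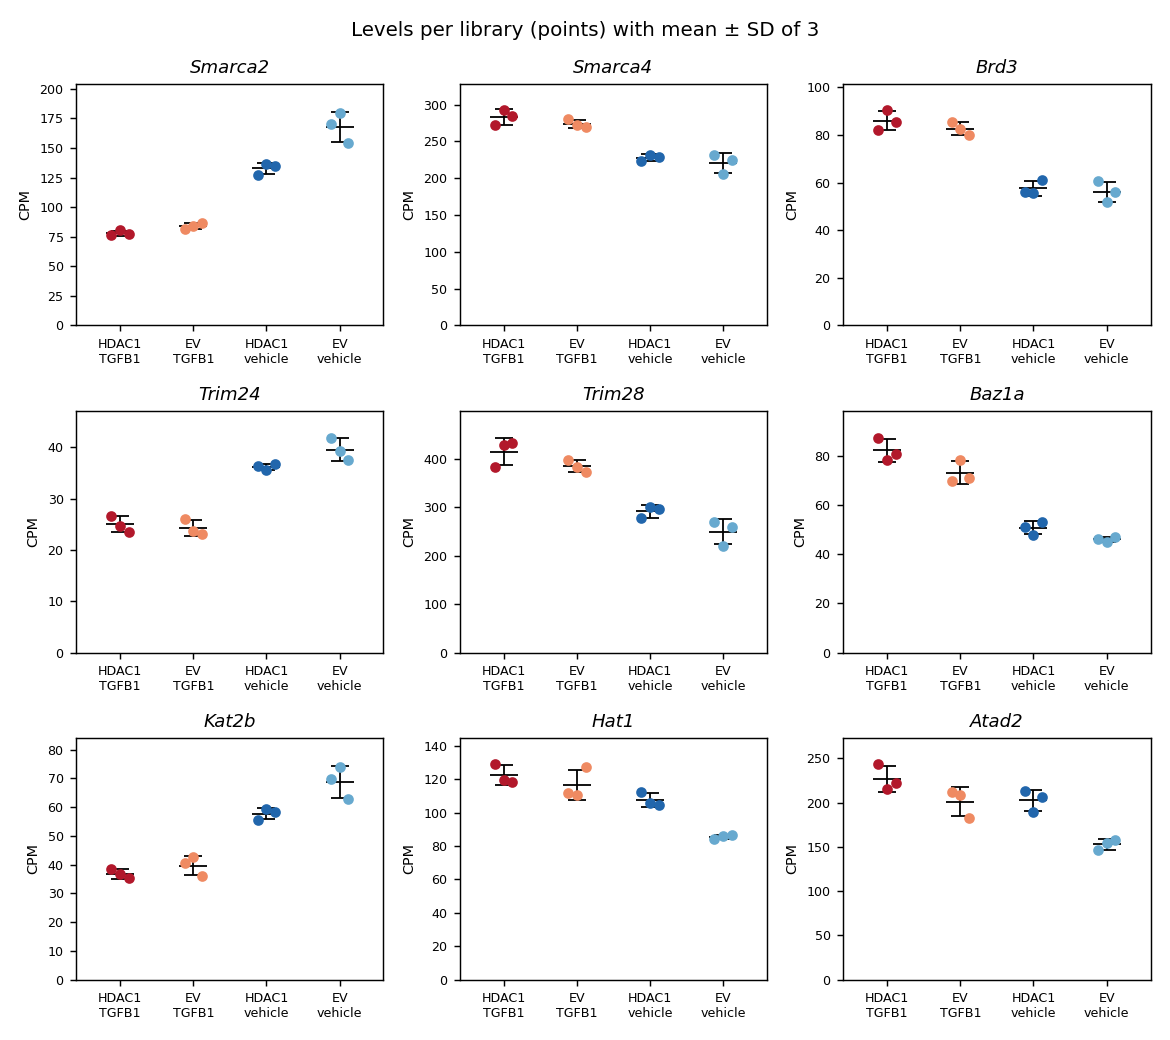
CPM (y axis, from 0) of 9 of the 35 genes in the 4 groups (EV is the empty vector), with a point for each of the 3 libraries and the mean ± SD. Smarca2, Trim24 and Kat2b are lower in the TGFB1 groups, Smarca4, Brd3, Trim28 and Baz1a are higher there, and Hat1 and Atad2 are lowest in the empty vector with vehicle.

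The levels given above can also be read as ratios within families, from CPM in the same library. They are without correction for gene length, so that a ratio is compared between libraries only. Smarca4 over Smarca2 was 3.63 ± 0.06 in HDAC1 cells with TGFB1, 3.27 ± 0.17 in empty vector cells with TGFB1, 1.72 ± 0.03 in HDAC1 cells with vehicle and 1.32 ± 0.16 in empty vector cells with vehicle (SD, n = 3 each). Trim28 over Trim24 was 16.7 ± 2.08 in HDAC1 cells and 15.9 ± 0.54 in empty vector cells with TGFB1, and 8.06 ± 0.41 in HDAC1 cells and 6.31 ± 0.66 in empty vector cells with vehicle. Kat2a over Kat2b was 2.33 ± 0.24 in HDAC1 cells and 2.05 ± 0.13 in empty vector cells with TGFB1, and 1.36 ± 0.04 in HDAC1 cells and 1.08 ± 0.16 in empty vector cells with vehicle. Kat2a passed the test with neither plasmid, so this ratio mainly restates the fall of Kat2b. In all 3 ratios the TGFB1 groups had means above both vehicle groups, which restates the changes of the single genes given above and adds no separate result. Ep300 over Crebbp was 2.63 ± 0.15 in HDAC1 cells and 2.51 ± 0.18 in empty vector cells with TGFB1, and 3.18 ± 0.39 in HDAC1 cells and 3.22 ± 0.28 in empty vector cells with vehicle.

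HDAC1 in vehicle changed 5 of the 35 genes (14.3%), where 14% of all tested genes were called, 6.64% higher and 7.32% lower. The writer Hat1 and the readers Atad2 and Trim28 were higher, and the writer Kat2b and the reader Smarca2 were lower. The median absolute log2 fold change of the 35 was 0.05, against 0.15 over all tested genes. These sets were not matched for level, so no weaker response of the 35 is read from the medians. The libraries of the 2 groups did not overlap for any of the 5 (the values per library are those given for vehicle above). They also did not overlap for Baz1a and Trim24, which were not called (edgeR adjusted p = 0.197 and 0.284). Overlap was not counted over all tested genes, so it does not set the 5 apart. Atad2 averaged 203 ± 12.05 CPM in HDAC1 cells and 153 ± 6.01 CPM in empty vector cells (SD, n = 3 each), a log2 fold change of 0.41 ± 0.07 (SE) and the largest of the 5 (edgeR adjusted p = 0.000472). Hat1 averaged 108 ± 4.37 CPM in HDAC1 cells and 85.5 ± 1.31 CPM in empty vector cells (0.33, edgeR adjusted p = 0.00158). Both genes kept their call under every alternative run, as did Smarca2, at 133 ± 4.89 CPM in HDAC1 cells and 168 ± 12.6 CPM in empty vector cells (-0.34, edgeR adjusted p = 0.000961). Kat2b averaged 57.7 ± 1.99 CPM in HDAC1 cells and 68.8 ± 5.61 CPM in empty vector cells (-0.25, edgeR adjusted p = 0.0271), and Trim28 averaged 292 ± 12.7 CPM in HDAC1 cells and 249 ± 25.7 CPM in empty vector cells (0.22, edgeR adjusted p = 0.0444). With the heart and brain genes as a covariate 4 of the 5 were called, without Kat2b (-0.25), and the calls over all tested genes fell from 2038 to 1562. The calls of Kat2b and Trim28 were lost without replicate 2 of the empty vector (Kat2b -0.18, edgeR adjusted p = 0.163, and Trim28 0.16, edgeR adjusted p = 0.148). Both were also lost without replicate 3 of HDAC1 (edgeR adjusted p = 0.0863 for Kat2b and 0.0959 for Trim28). Without replicate 1 of HDAC1 (edgeR adjusted p = 0.155) or replicate 1 of the empty vector (edgeR adjusted p = 0.102), Kat2b was lost, and without replicate 2 of HDAC1, Trim28 was lost (edgeR adjusted p = 0.095).

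Proliferation genes rose in this comparison, as did Atad2, Hat1 and Trim28, while Smarca2 and Kat2b fell. Of the 28 DNA replication genes whose symbol stood on 1 row, 25 were higher and 0 lower in HDAC1 cells with vehicle. The 29 found, which add E2f1 with its 2 rows, summed to 3235 to 3470 CPM in HDAC1 cells and 2351 to 2682 CPM in empty vector cells. The 30 mitosis genes were all higher, summing to 3944 to 4429 CPM in HDAC1 cells, against 2770 to 3009 CPM in empty vector cells. Their part in the changes of Atad2, Hat1, Smarca2, Kat2b and Trim28 was not tested. Ep300 and Crebbp were not called. Ep300 had 138, 139 and 149 CPM in HDAC1 cells, against 152, 140 and 150 CPM in empty vector cells, and Crebbp had 38.1, 47.0 and 50.6 CPM in HDAC1 cells, against 43.1, 47.0 and 47.6 CPM in empty vector cells. For the 34 genes other than Cecr2, the 95% intervals of the HDAC1 effect in vehicle lay between -0.47 (Smarca2) and 0.55 (Atad2) on the log2 scale.

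**Figure D4:**
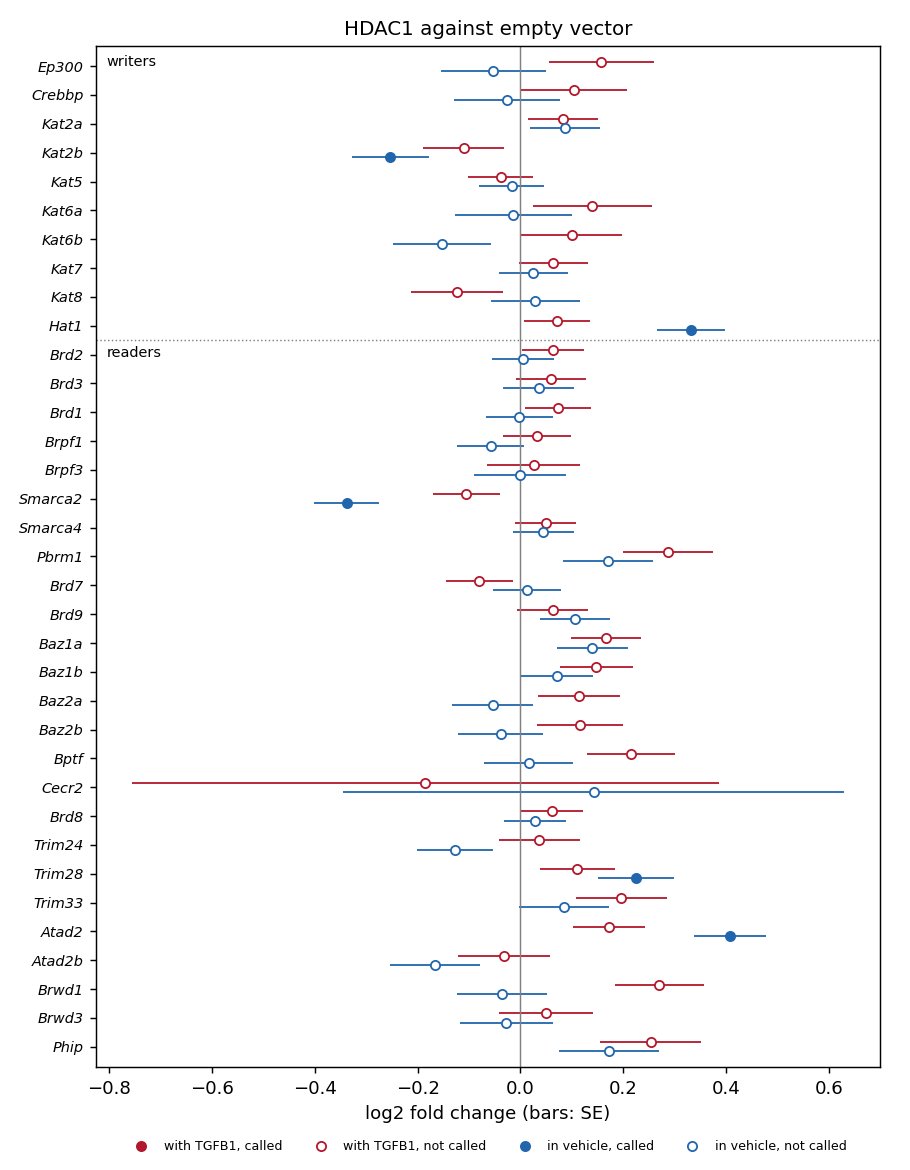
Log2 fold change of HDAC1 over empty vector (x axis, log2 scale) with its standard error for each of the 35 genes, with TGFB1 and with vehicle; filled points passed the edgeR test at an adjusted p under 0.05, and writers stand above the dotted line. With vehicle the called genes run from Smarca2 at -0.34 to Atad2 at 0.41, and with TGFB1 0 points are filled and 28 of the 35 lie above 0.

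With TGFB1 present, HDAC1 changed 0 of the 35 genes by the edgeR test, where 6.53% of all tested genes were called, 2.17% higher and 4.36% lower. At an unadjusted p under 0.05 there were 8, all of them readers and all higher with HDAC1. All tested genes were not counted at that threshold, so no excess is read from the 8. The DESeq2 test called 2 of the 35, Pbrm1 and Brwd1, and 1341 of all tested genes. The nearest was Pbrm1, at 157 to 173 CPM in HDAC1 cells and 111 to 145 CPM in empty vector cells (0.29, edgeR adjusted p = 0.0545). Brwd1 followed with 40.7 to 48.6 CPM in HDAC1 cells and 32.3 to 39.9 CPM in empty vector cells (0.27, edgeR adjusted p = 0.0663). The other 6 were Phip (0.25), Bptf (0.22), Trim33 (0.20), Atad2 (0.17), Baz1a (0.17) and Baz1b (0.15), with edgeR adjusted p between 0.128 and 0.212. For the 34 genes other than Cecr2, the 95% intervals lay between -0.31 (Kat8) and 0.47 (Pbrm1) on the log2 scale.

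The values above 0 rested in part on replicate 3 of the empty vector with TGFB1. With all libraries 28 of the 35 genes were higher in HDAC1 cells and the median log2 fold change was 0.07, against a median close to 0 over all tested genes. Without that library 22 of the 35 were higher, the median was 0.03, and 0 were called, where 3.32% of all tested genes were called. Without it Pbrm1 was 0.17 (edgeR adjusted p = 0.175), Brwd1 0.19, Phip 0.16, Baz1a 0.15, Atad2 0.11, Bptf 0.09, Trim33 0.09 and Baz1b 0.07. Without replicate 2 of the same group 5 readers were called higher: Pbrm1 (0.38), Phip (0.36), Bptf (0.32), Trim33 (0.31) and Baz1a (0.24). In that fit 8.29% of all tested genes were called. Single vehicle libraries enter through the shared spread and through the filter and scaling, which were computed anew in each fit. Leaving out some of them also brought Pbrm1 under the threshold, at 0.31. Its edgeR adjusted p was 0.0493 and 0.0473 without replicate 1 and 3 of HDAC1 with vehicle. It was 0.0374 and 0.0423 without replicate 1 and 2 of the empty vector with vehicle. Brwd1 passed without replicate 1 of the empty vector with vehicle (0.29, edgeR adjusted p = 0.0482). The heart and brain genes also differed between these 2 groups, as given above. With their summed level as a covariate 0 of the 35 were called, and 104 of all tested genes.

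The HDAC1 effects with and without TGFB1 differed for 0 of the 35 genes by the edgeR test of the difference, where 0.479% of all tested genes were called (0.137% higher and 0.342% lower). DESeq2 also called 0 of the 35, and 270 of all tested genes. At an unadjusted p under 0.05 there were 4 of the 35, and all tested genes were not counted at that threshold. The HDAC1 effect was lower with TGFB1 for Hat1 (difference -0.26, edgeR adjusted p = 0.203) and Atad2 (-0.24, edgeR adjusted p = 0.303), and higher for Brwd1 (0.31, edgeR adjusted p = 0.279) and Smarca2 (0.23, edgeR adjusted p = 0.258). So the 5 calls in vehicle and the 0 with TGFB1 were not shown to differ. For Hat1 the HDAC1 effect was 0.07 with TGFB1 (122 ± 5.91 CPM in HDAC1 cells and 116 ± 9.23 CPM in empty vector cells) and 0.33 with vehicle. For Smarca2 it was -0.11 with TGFB1 (78.0 ± 2.17 CPM in HDAC1 cells and 84.0 ± 2.69 CPM in empty vector cells) and -0.34 with vehicle. The 95% intervals of the difference, without Cecr2, lay between -0.45 (Hat1) and 0.56 (Brwd1) on the log2 scale.

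Partners of the 35 genes in their complexes, with further acetyltransferases and readers, were counted from 7 lists that held 97 measured genes. TGFB1 changed 53 of the 97 with the empty vector (37 higher and 16 lower, 54.6%) and 49 with HDAC1 (37 higher and 12 lower, 50.5%). Over all tested genes 50.9% were called with the empty vector (25.9% higher and 25% lower) and 49.1% with HDAC1 (24.9% higher and 24.2% lower). Of the 20 SWI/SNF partners measured, 10 were higher and 4 lower with the empty vector, and 8 were higher and 3 lower with HDAC1. Values beside the named partners are log2 fold changes. The SWI/SNF subunits Ss18 and Smarcd3 rose most clearly (Ss18 0.63 with HDAC1 and 0.75 with the empty vector, Smarcd3 0.76 with HDAC1 and 0.71 with the empty vector), as did the core subunits Smarcc1 (0.46 with HDAC1 and 0.42 with the empty vector) and Smarce1 (0.41 with HDAC1 and 0.43 with the empty vector). Smarca5, the ATPase that Baz1a accompanies, rose by 0.53 with HDAC1 and 0.44 with the empty vector, and of 4 ISWI partners measured 4 were higher with HDAC1 and 3 with the empty vector. The others were the histone chaperones Rbbp4 (0.41 with HDAC1 and 0.30 with the empty vector) and Rbbp7 (0.16 with HDAC1 and 0.28 with the empty vector), and Rsf1, higher with HDAC1 (0.18) and at -0.08 with the empty vector. Of the 14 NuA4/TIP60 partners 5 were higher and 0 lower with either plasmid, led by the AAA ATPases Ruvbl2 (0.68 with HDAC1 and 0.85 with the empty vector) and Ruvbl1 (0.58 with HDAC1 and 0.63 with the empty vector). Vps72 (0.34 with HDAC1 and 0.37 with the empty vector) and Morf4l2 (0.25 with HDAC1 and 0.33 with the empty vector) were also higher.

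Of the 20 SAGA and ATAC partners measured, 9 were higher with HDAC1 and 7 with the empty vector, and 1 was lower with each. Among them were Usp22, the deubiquitinase of SAGA (0.48 with HDAC1 and 0.43 with the empty vector), and Tada2a, an adaptor of ATAC (0.42 with HDAC1 and 0.52 with the empty vector). Taf9 (0.35 with HDAC1 and 0.47 with the empty vector), Supt20h (0.35 with HDAC1 and 0.34 with the empty vector) and Mbip (0.57 with HDAC1 and 0.35 with the empty vector) rose as well. Partners in the HBO1/MOZ, MSL and NSL complexes included 7 higher of 15 with either plasmid, and 1 lower with HDAC1 and 2 with the empty vector. Wdr5, a subunit of NSL, rose (0.52 with HDAC1 and 0.55 with the empty vector), as did Kansl2 (0.25 with HDAC1 and 0.27 with the empty vector). The HBO1 scaffolds differed in direction: Jade3 rose (0.99 with HDAC1 and 0.88 with the empty vector) and Jade2 fell (-0.49 with HDAC1 and -0.57 with the empty vector), while Jade1 rose with HDAC1 (0.51) and was at 0.17 with the empty vector (edgeR adjusted p = 0.0819). Among 12 other acetyltransferases, the ATAC subunit Kat14 rose (0.49 with HDAC1 and 0.47 with the empty vector) and the nuclear receptor coactivator Ncoa2 fell (-0.50 with HDAC1 and -0.62 with the empty vector), with 2 higher and 3 lower with HDAC1 and 3 higher and 4 lower with the empty vector. Ncoa1 (-0.27 with HDAC1 and -0.33 with the empty vector) and the tubulin acetyltransferase Atat1 (-0.36 with HDAC1 and -0.55 with the empty vector) fell too. Esco2, a cohesin acetyltransferase of S phase, rose with the empty vector (0.47) and was at 0.17 with HDAC1 (edgeR adjusted p = 0.0896), and Gtf3c4 rose with HDAC1 (0.45) and was at 0.24 with the empty vector (edgeR adjusted p = 0.0524). Of 12 other readers 2 were higher and 4 lower with HDAC1, and 2 higher and 5 lower with the empty vector. The bromodomain proteins Sp110 (-0.24 with HDAC1 and -0.45 with the empty vector) and Sp140 (-0.23 with HDAC1 and -0.30 with the empty vector) fell. Of the YEATS readers, Yeats2 rose (0.33 with HDAC1 and 0.21 with the empty vector), Mllt1 rose (0.35 with HDAC1 and 0.37 with the empty vector) and Mllt3 fell (-0.32 with HDAC1 and -0.35 with the empty vector).

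HDAC1 in vehicle changed 8 of the 97 partners (8.25%), 5 higher and 3 lower, against 14% of all tested genes (6.64% higher and 7.32% lower). The highest was Esco2 (0.54, edgeR adjusted p = 0.000165), followed by Ruvbl2 (0.29), Ruvbl1 (0.25), Taf9 (0.23) and Rbbp7 (0.21), and the lower ones were Sp110 (-0.35), Ing4 (-0.26) and Zmynd8 (-0.22). Of the 20 SWI/SNF partners edgeR called 0 in this comparison, with 3 at an unadjusted p under 0.05. DESeq2 called 1 of the 20, and 2319 of all tested genes. With TGFB1 2 of 97 were called (2.06%), against 6.53% of all tested genes, Smarca5 higher (0.21, edgeR adjusted p = 0.0497) and Tada3, an adaptor of SAGA and ATAC, lower (-0.24, edgeR adjusted p = 0.043). The difference of the HDAC1 effects passed for 0 of the 97 by edgeR, against 0.479% of all tested genes, and for 0 by DESeq2, with 4 at an unadjusted p under 0.05 by edgeR. All tested genes were not counted at an unadjusted p.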

How the data were processed

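Poly(A) RNA-seq of 12 libraries in 4 groups of 3 was used, grouped by sample titles because the treatment field runs as a numbered series of names. The tools named are Trim Galore 0.6.7, featureCounts of Subread 2.0.1 and DESeq2 1.44, per the submitters' processing notes. The build listed there is mm10 (mouse), but the identifiers are rat Ensembl genes; the aligner, rat build, strand setting and treatment of reads matching several genes are not given in the sources used here, so genes with close paralogues or antisense partners are uncertain. The authors deposited raw counts per gene and a normalized signal, each column of which equals the counts divided by 1 constant; it supplied gene symbols only.

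All tests used the raw counts. Genes were kept with filterByExpr of edgeR 4.0.16 (R 4.3.3), scaled with TMM, and fitted by robust quasi-likelihood with 1 mean per group over all 12 libraries (8 residual degrees of freedom, common biological coefficient of variation 7.61%). Two-sided p-values were adjusted by Benjamini-Hochberg over 14601 genes, and a gene was called under 0.05. Alternatives were DESeq2 1.42.0, its size factors, other filters, a replicate block, a fit restricted to the pair of groups, a heart and brain covariate (39 genes), and leaving out each library. The steps were tested on simulated data. The 35 genes and the partner and marker lists were chosen with earlier results of these data known; all 35 were named, and from each other list up to 4 called genes per comparison with the smallest adjusted p, except that the proliferation lists are given as counts and sums. No 2 replicates agreed within sampling noise. Promoter windows came from RefSeq (GRCr8), matched by symbol.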

Additional observations from a re-analysis of the deposited data

How the results depend on the processing

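Of 40 calls among the 35 genes, 28 held under all alternatives run and 12 were lost under at least 1: Kat2b and Trim28 for HDAC1 in vehicle, Kat6b, Kat7, Pbrm1 and Baz2a for TGFB1 with the empty vector, and Hat1, Kat5, Crebbp, Baz1b, Baz2b and Trim33 for TGFB1 with HDAC1. Among genes with an unadjusted p under 0.05, 0 changed sign; among the other 119 gene and comparison pairs, 144 of 2222 alternative fits did. For HDAC1 with TGFB1, 0 of the 35 were called, against 1 with DESeq2 size factors, 2 with the DESeq2 test and 4 with no filter on low counts. Over all genes the 954 called became 973, 1341 and 1372 in that order, and 104 with the heart and brain covariate. For the difference of the HDAC1 effects, the 70 genes called became 270 with the DESeq2 test, 479 with no filter and 0 with the covariate. The cause was not tested. Leaving out each library gave 3 to 5 of the 35 for HDAC1 in vehicle, 0 to 5 for HDAC1 with TGFB1, 13 to 17 for TGFB1 with the empty vector, 15 to 19 for TGFB1 with HDAC1 and 0 to 0 for the difference. Over all genes it gave 1144 to 2679, 237 to 1251, 6633 to 7511, 6210 to 7657 and 3 to 257 in the same order. Groups share replicate numbers, and no clear pairing of same-numbered libraries was seen (correlations of deviations -0.09 to 0.12, with 2 of 18 over 0.1). Libraries with different numbers were not compared, so a pairing is not excluded. With a replicate block the counts among the 35 were 4, 0, 15, 19 and 0 in that order (Trim28 and Kat6b lost), and over all genes 1790, 784, 7197, 6915 and 98. The 3 libraries per group and the depth of Cecr2 limit what could be detected.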
